A study of Mus musculus with 6 samples.

Results

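The circles described here are the exonic circRNAs of mouse liver with the most exons, those listed with 7 or more. They number 519 of the 7469 circRNAs listed (6.95%) and 519 of the 6406 exonic ones, and they come from 403 host genes. The other 5887 exonic circles contain 1 to 6 exons, and 1932 of these contain 4 to 6. Membership rests on the class and the exon number given for each circle and on no read count.

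Livers of 12-week-old C57BL/6J mice were compared between a high-fat diet (HFD, 3 mice) and a low-fat diet (LFD, 3 mice), with 1 library per mouse. The mice were male according to the study's methods. The comparison asks how circRNAs of the liver differ in diet-induced obesity. All mice were of the same strain and age, and no genetic change is named for either group.

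A circRNA forms when the splicing machinery joins the end of an exon backwards to the start of the same or an earlier exon, and the exons between stay in the ring. Long introns on both sides, often carrying repeats that pair with each other, favour this back-splicing. The ring has no free end and resists exonucleases such as RNase R, so that circRNAs outlast most linear transcripts. Only the reads that cross the back-splice junction tell a circle from its linear host transcript, and the exons inside the ring are read from annotation. Circles of many exons contain more sequence than most exonic circles, and their bodies are close to partial copies of the host mRNA.

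The back-splice junction is the part of such a circle that the reads observed. The sequences below are those of circles with the most reads, of circles whose SRPBM, the back-spliced reads set against the reads mapped in each library, did not overlap between the diets, and of the circle with the most exons. In each, the lower-case letters are the last bases of the circle, and the capitals are its first bases, which follow them across the junction. They are read 5′ to 3′ on the host strand from the GENCODE M21 transcripts, on GRCm38, 30 bases on each side.
Asph mmu_circ_0001182, chr4:9583812-9610938, minus strand: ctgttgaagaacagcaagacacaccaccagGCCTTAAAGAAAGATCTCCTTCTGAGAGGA
Asph circRNA1587, chr4:9583813-9610938, minus strand: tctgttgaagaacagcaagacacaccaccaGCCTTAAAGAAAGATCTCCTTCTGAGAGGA
Asph circRNA4007, chr4:9594664-9610938, minus strand: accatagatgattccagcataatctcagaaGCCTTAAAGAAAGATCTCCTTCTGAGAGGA
Lamp2 mmu_circ_0016266, chrX:38424267-38442140, minus strand: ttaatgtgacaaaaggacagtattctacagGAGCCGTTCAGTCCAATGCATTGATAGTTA
Reps1 mmu_circ_0000148, chr10:18089448-18096336, plus strand: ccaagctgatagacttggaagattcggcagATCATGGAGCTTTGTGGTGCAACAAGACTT
Pnpla3 circRNA4837, chr15:84171083-84186081, plus strand: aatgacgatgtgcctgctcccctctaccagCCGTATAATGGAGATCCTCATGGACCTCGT
Fam126a mmu_circ_0012451, chr5:23979488-23991837, minus strand: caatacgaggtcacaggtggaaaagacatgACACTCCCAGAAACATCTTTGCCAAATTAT
Gramd1c circRNA2092, chr16:43997726-44040158, minus strand: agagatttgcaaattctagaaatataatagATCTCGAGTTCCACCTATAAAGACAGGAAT
Ubr3 circRNA1215, chr2:69914414-69993812, plus strand: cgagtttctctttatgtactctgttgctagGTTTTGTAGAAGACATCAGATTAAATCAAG
All bases shown are coding. For the Aass circle with the most reads, circRNA817 at chr6:23107140-23122737 on the minus strand, only the end is coding and is shown: gacatgctttacccttatgttgaagaaatg. The first pair of Asph junctions is of listed entries whose starts lie 1 bp apart. Their capitals are the same, and the lower-case part of circRNA1587 lacks the final base of the exon. The listed starts of Asph circRNA4007 and Pnpla3 circRNA4837 also lie 1 bp inside an exon. The lower-case part of circRNA4007 thus lacks the final base of its exon, and the capitals of circRNA4837 lack the first base of theirs.

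The number of exons fell off steeply above the minimum. There were 194 circles of 7 exons, 134 of 8, 78 of 9, 28 of 10 and 85 of 11 or more. The median genomic span was 21874 bp, with quartiles of 14202 and 34734 bp, against a median of 4994 bp for circles of 1 to 6 exons. Span and exon number are tied by how the circles were chosen, and no test was made of it. The shortest, in Coasy, which encodes coenzyme A synthase, spanned 2046 bp with 8 exons. It had 5 reads, all in HFD 2, and ended 115 bases into the last exon of its listed isoform, where no M21 exon ends. The longest, in Gphn, which encodes the scaffold protein gephyrin, spanned 247320 bp with 11 exons and had 4 reads, all in HFD 2. Spliced lengths could be summed for 502 circles. Their median was 998.5 bases, from 375 to 4077, against 378.5 bases for circles of 1 to 6 exons.

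**Figure D1:**
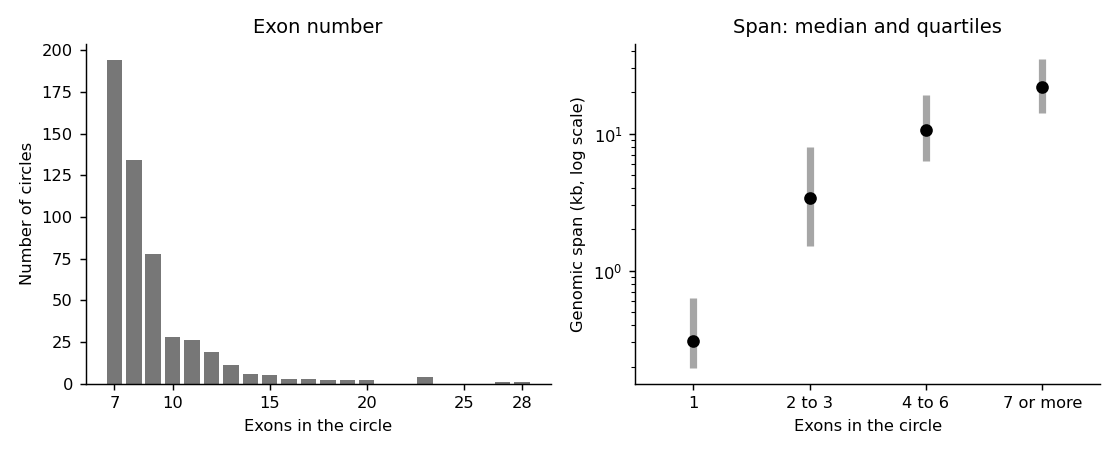
Left, number of circles (vertical axis) by exon number (horizontal axis) for the 519 circles of 7 or more exons. Right, genomic span in kb on a log scale for 4 classes of exonic circles, with points for the median and bars from the lower to the upper quartile. The 7-exon class holds 194 circles, and the median span is highest in the class of 7 or more exons.

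The circles with the most exons had 1 to 12 reads each. A circle of 28 exons came from Ubr3, which encodes a ubiquitin ligase, and ran from exon 2 to exon 29 of an isoform of 39 exons. A circle of 27 exons came from Itpr1, the inositol trisphosphate receptor that releases calcium from the endoplasmic reticulum, with exons 13 to 39 of 62. Each had 1 read, in HFD 1. The next 4 circles by exon number were all listed with 23 exons in Mgam, the maltase-glucoamylase known from the intestinal brush border. They spanned 25994 to 35983 bp, and their starts lay up to 39294 bp apart. Of these, circRNA1786 and circRNA3127 each had 12 reads in 4 libraries. circRNA1786 had 4, 3 and 0 reads in HFD 1, 2 and 3 and 2, 0 and 3 in LFD 1, 2 and 3. circRNA3127 had 0, 3 and 4 reads on the HFD and 0, 2 and 3 on the LFD. The diets overlapped for both. The isoform listed for Mgam is not among the M21 transcripts, so that these exon numbers were not checked. Set against all M21 exons, circRNA1784 did not end on an exon end. The starts of circRNA1785, circRNA1786 and circRNA3127 lay on no exon start.

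The ends of the circles lay almost without exception on annotated exons. Both ends of 507 circles fell on exons of a single M21 transcript. For 502 this was the isoform listed, with the listed exon number in 502 of 502. The listed isoforms and exon numbers themselves come from annotation, so that such a match was largely fixed in advance. The start lay 1 bp inside an exon for 6.36% of the circles, against 9.90% of circles of 1 to 6 exons. The flanking introns had medians of 8535 bases before the circle and 6272.5 bases after it. For circles of 1 to 6 exons they were 6803 and 5204.5 bases. These medians did not rise steadily with exon number. They were 10663 and 10113 bases for circles of 1 exon, and 6064 and 4874 bases for 2 to 3 exons. Circles of 6 exons had 9206 and 5651.5 bases, and those of 11 or more had 5305 and 7152.5. No test was made of these lengths. A start in exon 2 of the host isoform was seen for 29.1% of the circles described here, much as for circles of 1 to 6 exons (28.7%). An end in the last exon but 1 was seen for 15.9% against 12.8%. A median of 43.2% of the exons of the host isoform lay in the circle, and 20% for circles of 1 to 6 exons. The host isoforms had a median of 21 exons and of 15, respectively. Like span, both measures are tied to exon number by how the circles were chosen, and no test was made of them. Circles that lay wholly in coding sequence made up 83.0%, and 12.7% held the start codon. For circles of 1 to 6 exons these were 81.9% and 13.5%.

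A back-splice junction resembles a linear one where neighbouring exons carry like sequence. The 30 bases at the end of each circle were compared with the end of the exon just before its first exon, and the 30 bases at its start with the exon just after its last. In 511 and 508 such comparisons, 0 had 27 or more bases the same, and the most was 17. Circles without a matching M21 transcript, among them all 4 of Mgam, were not compared. For the 34 circles with a start 1 bp inside an exon, the bases on that side were offset by 1, so that like sequence could be missed. At the circle's end, Asph circRNA1587 had 6 bases the same, and mmu_circ_0001182, whose start lies 1 bp away, had 11. For these circles the comparison cannot tell whether the junction resembles a linear one.

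Reads were few per circle. The 519 circles held 1402 of the 36218 back-spliced reads (3.87%), a mean of 2.70 reads and a median of 1, against a mean of 5.38 and a median of 2 for circles of 1 to 6 exons. A single read over the 6 libraries was all there was for 274 circles (52.8%). The 10 circles with the most reads held 362 reads, 25.8% of those on circles of 7 or more exons. Just inside the exon minimum, the 194 circles of 7 exons had a mean of 2.62 reads, and 85.6% were seen in 1 library. Just outside it, the 351 circles of 6 exons had a mean of 3.62 reads, and 77.5% were seen in 1 library.

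Within every library, a detected circle of 7 or more exons had fewer reads on average than a detected circle of 1 to 6 exons. Its mean was 2.34, 2.26 and 2.06 reads in HFD 1, 2 and 3 and 2.15, 2.20 and 1.87 in LFD 1, 2 and 3. The means for 1 to 6 exons lay between 3.13 and 3.38 reads. The difference averaged -1.10 reads and lay between -1.36 and -0.843 over the 6 libraries (two-sided exact sign-flip permutation test over libraries, p = 0.03125, the smallest that 6 libraries can give). Medians over circles differed by -0.833 on average, between -1 and 0 (exact permutation test, p = 0.0625). Circles of 6 exons alone had means of 2.16, 2.69 and 3.11 reads in HFD 1, 2 and 3. In LFD 1, 2 and 3 their means were 2.33, 2.60 and 2.06 reads. In HFD 1 they thus lay below circles of 7 or more exons, and in the other libraries above them.

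Recurrence was lower as well. Reads in 1 library only were found for 443 of the 519 circles (85.4%), and for 68.5% of circles of 1 to 6 exons. A further 45 were found in 2 libraries, 17 in 3, 6 in 4, 7 in 5 and 1 in all 6. Of the circles of 7 or more exons detected in a library, the share that had reads in at least 1 other library was 29.0%, 26.3% and 30.0% in HFD 1, 2 and 3 and 38.2%, 35.9% and 34.5% in LFD 1, 2 and 3. For circles of 1 to 6 exons it lay between 56.0% and 60.4%. The difference averaged -26.3 percentage points, between -32.4 and -20.7 (exact sign-flip permutation test, p = 0.03125, and 0.03125 when adjusted over this test and that of reads per circle). The libraries share the circles that recur and are not fully independent in this measure. The share for circles of 6 exons alone lay between those of both classes in every library. It was 42.5%, 43.9% and 45.9% in HFD 1, 2 and 3 and 48.1%, 45.3% and 52.9% in LFD 1, 2 and 3.

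**Figure D2:**
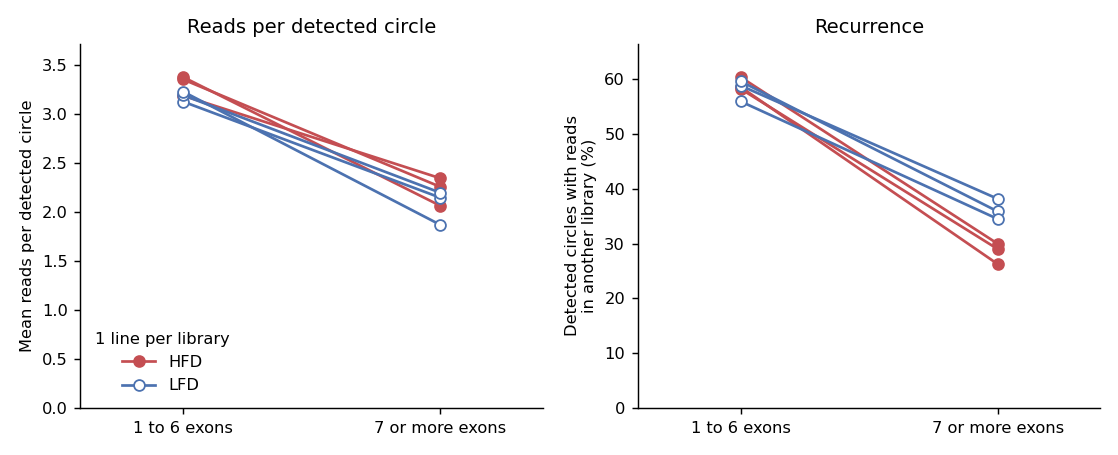
Mean reads per detected circle (left) and percent of detected circles with reads in another library (right), for exonic circles of 1 to 6 exons and of 7 or more, with 1 line per library. All 6 lines fall in both panels, and in the right panel the 3 LFD libraries end between 34.5% and 38.2% and the 3 HFD libraries between 26.3% and 30.0%.

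A circle with few reads can appear in few libraries, so circles with like numbers of reads were set side by side. Among circles with 2 reads, 88.3% of the 111 with 7 or more exons had both reads in 1 library, and 84.8% of the 395 with 4 to 6 exons. With 3 to 4 reads the shares were 67.4% of 89 and 59.9% of 337 circles. With 5 to 9 reads they were 37.9% of 29 and 20.5% of 239 circles. With 10 or more reads they were 0 of 16 and 3 of 159 circles (1.89%). Within the ranges above 2 reads, the classes may differ in reads. These shares are a description over circles and carry no test. Of the circles seen in 1 library, 169 had at least 2 reads there, 71 at least 3 and 11 at least 5, up to 8 reads. Reads of a library that come from copies of a single molecule were not marked and cannot be told apart from separate molecules.

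**Figure D3:**
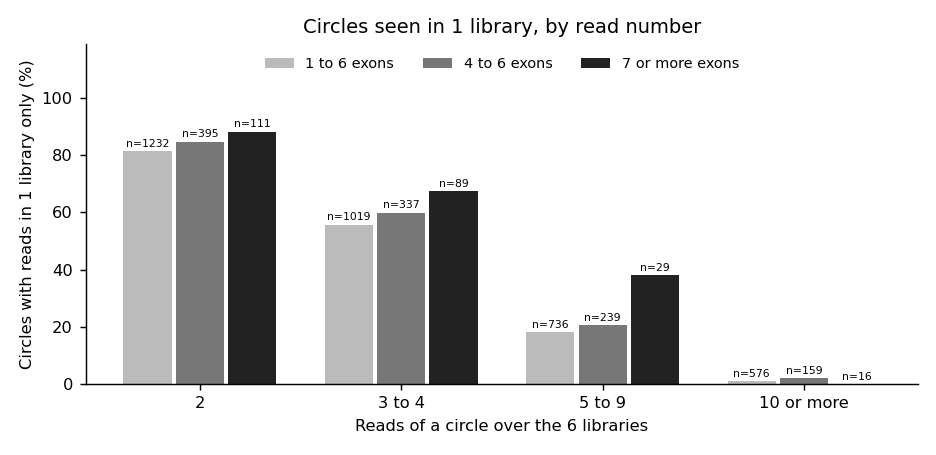
Percent of circles with reads in 1 library only (vertical axis) for circles with 2, 3 to 4, 5 to 9 and 10 or more reads in all (horizontal axis), by exon class, with the number of circles above each bar. At 5 to 9 reads, the bar for 7 or more exons stands at 37.9% and that for 4 to 6 exons at 20.5%, and at 10 or more reads they stand at 0 and 1.89%.

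The host genes mostly also gave shorter circles. Of the 403 hosts, 317 had exonic circles of 1 to 6 exons too, and 86 had none, with 93 circles and 176 reads. Among the 317 hosts, reads on the circles of 7 or more exons exceeded those on shorter circles in 34 (10.7%), equalled them in 29 and were below them in 254. The start or the end of 257 circles (49.5%) was also that of a shorter exonic circle of the list, and for 65 both were. Most hosts, 322, had a single circle of 7 or more exons, 59 had 2 and 22 had 3 or more.

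The hosts with the largest number were Vwa8, which encodes a mitochondrial ATPase, with 7 circles, and Gphn, the kinase gene Taok1 and Itpr1 with 5 each. Asph, Mgam and the bicarbonate transporter gene Slc4a4 had 4 each. The 7 circles of Vwa8 had 6 different starts and 6 different ends, and 12 reads between them, 8 of which were in HFD 2. Its 14 shorter circles had 139 reads. The 5 circles of Gphn had 14 reads, 11 of which were in HFD 2, and the 14 shorter ones had 207.

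The hosts span many roles. Among genes of liver metabolism and transport that had exonic circles, 11 of 33 had circles of 7 or more exons, 15 circles with 50 reads. They included Cps1 of the urea cycle, the bile salt exporter gene Abcb11, the lipogenic genes Acaca and Acly, and the glycogen genes Gbe1, Gys2 and Phkb. The membrane traffic list, in which Dock1 and Dock4 were also counted, had 12 of 30 hosts, 17 circles and 33 reads. Of these hosts, Dock4 had 7 reads in 3 libraries, and Vps13b had 3 circles. Ubiquitin pathway genes had 10 of 30 hosts, 10 circles and 39 reads. Chromatin and transcription genes had 5 of 30 hosts, 7 circles and 12 reads. Cytoskeleton and motor genes had 2 of 24 hosts, both kinesins, with 5 circles and 9 reads. Complement, coagulation and plasma protein genes had 4 of 17 hosts, C3, F5, F8 and Fn1, with 4 circles and 5 reads. The share of a list's exonic circles that had 7 or more exons lay between 5.43% and 13.6% over the 6 lists. Over the whole series, 519 of the 6406 exonic circles had 7 or more exons. Of the 2949 hosts of circles of 1 to 6 exons, 317 also hosted circles of 7 or more. This leaves out the 86 hosts without a shorter circle, while the list counts include such hosts, among them Pcx and C3. The 2 are thus not like for like. No test was made of these lists.

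The labelled tissue was checked by the hosts of circles of any class. Of 15 hepatocyte markers, 13 hosted circles, and Cyp3a11 and Tf hosted none. Kupffer cell markers gave 1 of 5, endothelial markers 2 of 5 and stellate cell markers 1 of 5. Cholangiocyte, adipocyte and skeletal muscle markers all stood at 0.

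The single circle with reads in all 6 libraries was circRNA817 of Aass. This gene encodes the mitochondrial enzyme that begins the breakdown of lysine. The circle joined exon 11 back to exon 2 of 24, with 10 exons, 1293 bases and the start codon. It had 34, 25 and 23 reads in HFD 1, 2 and 3 and 17, 24 and 19 reads in LFD 1, 2 and 3. The diets overlapped, since LFD 2 exceeded HFD 3. In SRPBM, the ratio of HFD to LFD was 1.26 (edgeR log2 fold change 0.27 ± 0.50 (SE), adjusted p = 0.98). The circle held 95.3% of the reads on exonic circles of Aass, and the 2 shorter circles of the gene had 7 reads between them.

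Asph, which encodes an aspartate hydroxylase of the endoplasmic reticulum, had the circle with the next most reads. circRNA1587 had 7, 13 and 0 reads on the HFD and 6, 7 and 3 on the LFD. Its neighbour mmu_circ_0001182, with the start 1 bp away, had 8 reads in HFD 3 and 0 in each other library. Summed, the junction had 7, 13 and 8 reads on the HFD and 6, 7 and 3 on the LFD, and so was present in all 6 libraries. The diets overlapped at 7 reads. Another circle of the gene, circRNA4007, which starts in the same exon 4 and ends 1 exon earlier, had 10 reads in HFD 3 and 5 in LFD 2. In contrast to Aass, the 4 circles of 7 or more exons held 13.2% of the exonic circle reads of Asph, and 367 of its reads were on a circle of 2 exons elsewhere in the gene.

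Splitting between entries 1 bp apart was the rule where it occurred. The list held 11 such pairs with a member of 7 or more exons, in which no library had reads of both entries. Eps15l1, an adaptor of clathrin-mediated endocytosis, had 9, 1 and 5 reads on the HFD and 0, 4 and 6 on the LFD for mmu_circ_0001688, and its neighbour had 3 reads in LFD 1. Usp3, a histone deubiquitinase, had 3, 9 and 0 reads on the HFD and 0, 5 and 3 on the LFD for mmu_circ_0001798. The neighbour of the latter, listed with 6 exons, had 9 reads in HFD 3 and 2 in LFD 1. Once entries were summed, 4 circles were present in all 6 libraries, those of Aass, Asph, Usp3 and Eps15l1, in place of 1. Oxr1, an oxidation resistance gene, went from 3 to 5 libraries, with 14 reads in all.

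Between the diets, neither the reads nor the number of circles of 7 or more exons differed beyond the spread between mice. The reads on these circles were 218, 352 and 227 in HFD 1, 2 and 3 and 191, 257 and 157 in LFD 1, 2 and 3, of 5384 to 6590 back-spliced reads per library. As a share this was 3.40%, 5.34% and 3.78% on the HFD and 3.55%, 4.65% and 2.50% on the LFD. The highest share was that of HFD 2, with a 95% Wilson interval of 4.82% to 5.91%, and the lowest was that of LFD 3, 2.14% to 2.91%. These intervals, and the floor of 3 reads used for folds, cover counting error only. The mean was 4.17% ± 1.03 (SD, n = 3) on the HFD and 3.56% ± 1.08 (SD, n = 3) on the LFD, a difference of 0.609 percentage points (two-sided exact permutation test, p = 0.5). The number of circles detected was 93, 156 and 110 on the HFD and 89, 117 and 84 on the LFD. The means were 119.7 ± 32.6 and 96.7 ± 17.8 (SD, n = 3 each), a difference of 23.0 (exact permutation test, p = 0.4, and 0.5 for both results when adjusted over the 2). A comparison of 3 with 3 libraries cannot give a p below 0.1. Without HFD 2 the differences were 0.0251 percentage points and 4.83 circles, and without LFD 3 the difference in share was 0.0757 percentage points.

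HFD 1 and LFD 3 had the lowest share of the libraries of their diet, and in the paper they are listed with a higher base quality than the other libraries. The intronic share of the back-spliced reads was 10.8% in HFD 1 and 8.28% in LFD 3 and lay between 4.56% and 5.43% in the other 4. Between these 4 libraries, HFD minus LFD was 0.464 percentage points of reads and 30.0 circles. HFD 1 and LFD 3 are 1 library of each diet, with 3.40% and 2.50%.

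The share of detected circles of 7 or more exons that recurred was lower in all 3 HFD libraries than in all 3 LFD libraries, with 28.4% ± 1.93 against 36.2% ± 1.86 (SD, n = 3 each). The difference was -7.77 percentage points (exact permutation test, two-sided p = 0.1, as low as 3 libraries against 3 can go), and it was looked at only after the values had been seen. With every library thinned at random to 5384 reads it was -7.61, and with entries 1 bp apart summed it was -7.38 percentage points. Without HFD 2 it was -4.49 percentage points. For circles of 1 to 6 exons the means were 59.1% ± 1.15 on the HFD and 58.2% ± 1.93 on the LFD (SD, n = 3 each), which overlapped (exact permutation test, p = 0.6).

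**Figure D4:**
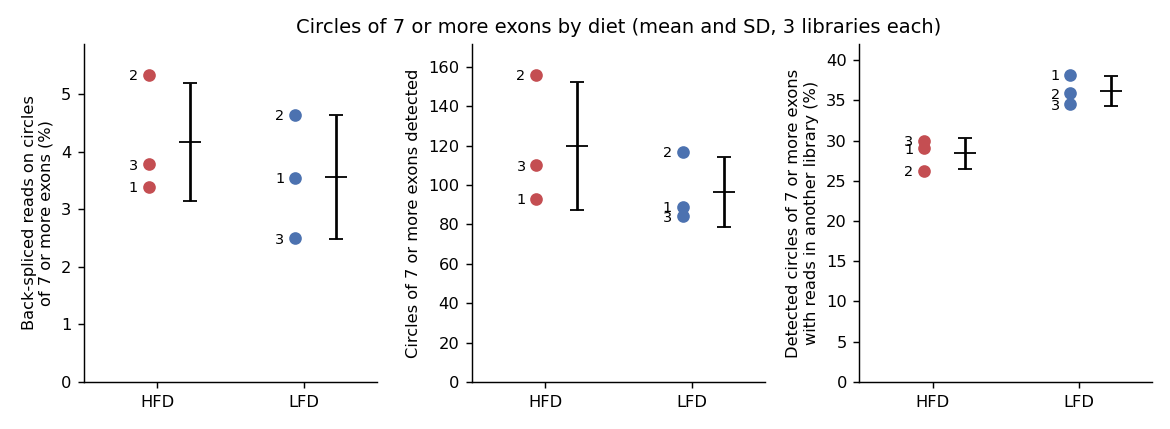
Percent of back-spliced reads on circles of 7 or more exons (left), number of these circles detected (middle) and percent of them with reads in another library (right), by diet, with 1 numbered point per library and the mean and SD of 3 libraries beside them. The diets overlap in the left and middle panels and do not overlap in the right panel.

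Single circles were tested with edgeR over all 2041 circRNAs found in 2 or more libraries, of which 76 had 7 or more exons. These 76 are the recurring minority of the 519, and the other 443 had reads in 1 library each and were not tested. A circle was called when its unadjusted p was under 0.05 and its log2 fold change was at least 1 in size. Over all 2041, 2.4% were called, 1.18% higher and 1.22% lower on the HFD. Of the 76 circles, 1 was called, circRNA4837 of Pnpla3, lower on the HFD, and 0 were higher. At an adjusted p under 0.05 the count was 0 of 76, and 0 of 2041, by edgeR, by DESeq2 and by limma. The smallest adjusted p among the 76 was 0.69. With single libraries left out, the share called over all circRNAs tested lay between 1.18%, without HFD 2, and 2.3%. It was also lower by over 1.5 times without HFD 3 (1.3%), LFD 2 (1.22%) and LFD 3 (1.59%). The median log2 fold change was -0.10 over the 76 circles and -0.13 over all 2041. At an unadjusted p under 0.05 the count among the 76 was 1 by edgeR, 1 by DESeq2 and 4 by limma, and over all 2041 it was 49, 13 and 81. The 76 circles had a median of 4 reads.

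Pnpla3 encodes a lipase of the lipid droplet surface, and it hosted no other exonic circle. circRNA4837 had 0 reads in each HFD library and 5, 6 and 8 reads in LFD 1, 2 and 3. The diets were fully apart. In SRPBM the circle was at least 2.26-fold lower on the HFD, counted against a floor of 3 reads per library (edgeR unadjusted p = 0.0026, adjusted p = 0.69). Since the samples are whole liver, fewer cells of a type and less RNA per cell cannot be told apart. The end of this circle lay 105 bases into exon 8, the last exon of the isoform listed, where other M21 transcripts of Pnpla3 and of the gene Gm49513 end an exon on the same strand. These hosts cannot be told apart by the junction's end.

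SRPBM did not overlap between the diets for 4 of the 76 circles (5.26%), against 4.95% of all 2041 circRNAs tested. It was higher on the HFD for 2, where 3.14% of the 2041 were, and lower for 2, where 1.81% were. Lamp2, which encodes a lysosomal membrane protein, had 9, 11 and 7 reads on the HFD and 7, 0 and 1 on the LFD for mmu_circ_0016266. HFD 3 and LFD 1 had the same number of reads, and SRPBM set them apart by the scaling alone. Over the 27 HFD and 8 LFD reads, the ratio of HFD to LFD per mapped read was 3.14, with a 95% Clopper-Pearson interval of 1.39 to 7.99 for counting error alone. The log2 fold change was 1.49 ± 1.12 (SE, edgeR unadjusted p = 0.18). It was 3.75 without LFD 1, past the thresholds (edgeR unadjusted p = 0.016), and 0.90 without LFD 2. This circle of exons 2 to 8 of 9 held 70.0% of the exonic circle reads of Lamp2.

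Fam126a, which encodes hyccin, a partner of the phosphatidylinositol 4-kinase at the plasma membrane, had 3, 5 and 6 reads on the HFD and 0, 1 and 1 on the LFD for mmu_circ_0012451. The ratio of HFD to LFD, from 14 and 2 reads, was 6.50, with a counting interval of 1.49 to 59.0, and the circle missed the threshold (edgeR unadjusted p = 0.17). A circle of 9 exons that ends at the same place was listed as 2 entries 1 bp apart, mmu_circ_0012452 and circRNA5612. Summed, it had 0, 3 and 0 reads on the HFD and 2, 4 and 0 on the LFD, with a log2 fold change of -1.11. All circles of 7 or more exons of Fam126a together had 3, 8 and 6 reads on the HFD and 2, 5 and 1 on the LFD, and these overlapped. Gramd1c, of a family of sterol transfer proteins, had 0, 1 and 0 reads on the HFD and 8, 2 and 3 on the LFD for circRNA2092 (edgeR unadjusted p = 0.063). From 1 and 13 reads, the ratio of LFD to HFD was 14.0, with a counting interval of 2.10 to 594.6. A circle of 4 exons with the same first exon, circRNA448, holds most of the 174 reads of the shorter Gramd1c circles, and these lay at 39, 30 and 13 reads on the HFD and 15, 25 and 52 on the LFD, so that the diets overlapped. Gramd1c was singled out after its values were seen.

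The other circles with many reads overlapped between the diets. Reps1, which encodes an endocytosis protein, had 0, 7 and 12 reads on the HFD and 3, 5 and 2 on the LFD for mmu_circ_0000148. Rmdn2, a gene linked to microtubule dynamics, had 4, 5 and 0 reads on the HFD and 3, 11 and 2 on the LFD for circRNA1610. The latter ends 50 bases into exon 11, the last exon of the listed isoform, at an exon end of another Rmdn2 transcript. Its host gave 274 reads on a circle of 3 exons whose start lay 1 bp away, against 37 reads on both circles of 7 or more exons.

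**Figure D5:**
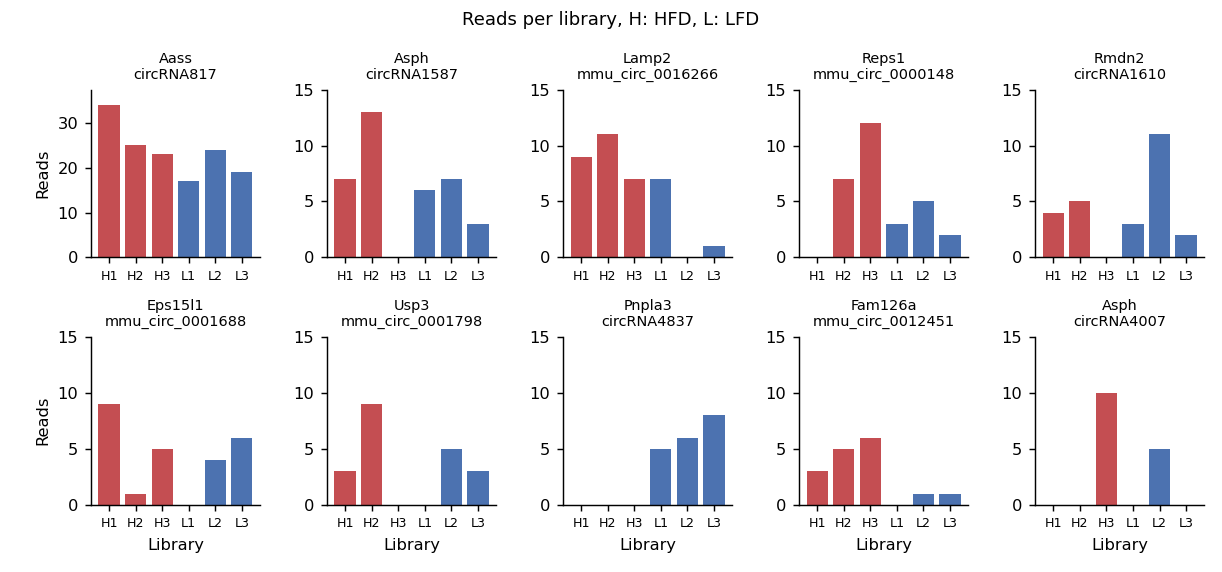
Reads per library (vertical axis) of the 10 circles of 7 or more exons with the most reads, with HFD libraries H1 to H3 in red and LFD libraries L1 to L3 in blue. The Aass panel has its own scale, up to 34 reads, the Pnpla3 circle has reads in the LFD libraries alone, and the Lamp2 and Fam126a circles have their highest values on the HFD.

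By the host lists, 9 circles of 7 or more exons entered the test, 3 each of liver metabolism and membrane traffic, 2 of the ubiquitin pathway and 1 of chromatin, and none of the cytoskeleton and plasma protein lists. Pnpla3 was the one that passed the unadjusted thresholds. The lipogenic gene Acly, which encodes ATP citrate lyase, had 0 reads in each HFD library and 2, 4 and 0 on the LFD for circRNA4191 (edgeR unadjusted p = 0.072). Gbe1, the glycogen branching enzyme, had 2 reads in HFD 3 and 1 in LFD 2 for circRNA3363. The rest of the 9 had 2 to 20 reads, and their diets overlapped.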

How the data were processed

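Liver RNA libraries of 3 HFD and 3 LFD mice were grouped by their titles. The labels name ribosomal RNA depletion, and the study's methods add RNase R digestion. Per the submitters' processing notes, Cutadapt 1.9 and TopHat2 2.0.4 were used, and the build is mm9. The study's methods name CIRCExplorer2 and CIRI for circRNA calling. The listed positions fell on GENCODE M21 exons, which are on GRCm38, and are given as that build. For every circRNA and library, the deposited count is that of reads across the back-splice junction, not normalized. The deposited signal, SRPBM, scales the count to the mapped reads and equalled the count times 1 factor per library.

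Members and gene lists were chosen with earlier results of these data known. Each circRNA found in 2 or more libraries entered the edgeR 4.0.16 quasi-likelihood test (TMM, two-sided) in R 4.3.3, with Benjamini-Hochberg adjustment over all 2041. Library sizes were the sums over the circRNAs tested, used in place of the totals over all listed circRNAs after both had been seen. Class totals were compared by exact permutation tests over libraries (SciPy 1.17.1). Libraries held 5384 to 6590 back-spliced reads. The test was tried on simulated counts with 200 circles changed 8-fold. Of the changed circles that were tested, it called 62.8% at a dispersion of 0.05 and 41.2% at 1. Of the unchanged circles it called 2.29% and 2.71%. The common dispersion of the data was 1.17. The simulated counts left 4126 and 3644 circles to test, more than the 2041 of the data.

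Circles were named if they were among the 10 with most reads, passed the thresholds, were among the 5 with most exons (ties included), had the largest or smallest span, or had reads in all 6 libraries. Others named were chosen after their values were seen, or come from the host lists. Alternatives were other normalizations and filters, DESeq2 1.42.0, the edgeR exact test, limma 3.58.1 on log2(SRPBM + 1), entries 1 bp apart summed, the replicate number or base-quality class in the model, exon minimums of 6 and 8, and each library left out. Python 3.11.15 with pandas 2.3.3, NumPy 2.4.6 and matplotlib 3.10.9 was used. RT-qPCR and body measurements were not analysed here.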

Additional observations from a re-analysis of the deposited data

How the results depend on the processing

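The unadjusted thresholds were passed by 1 of the circles of 7 or more exons, and by 2 with entries 1 bp apart summed (Gramd1c circRNA2092 added), by limma (Lamp2 mmu_circ_0016266 added), and without HFD 2, LFD 1 or LFD 2, a range of 1 to 2 over single libraries left out. Pnpla3 circRNA4837 passed under every alternative run. Calls over all circRNAs tested went from 49 to 10 with the replicate number as a block, 11 by the edgeR exact test, 13 by DESeq2, 13 with the base-quality class, 20 by limma and 26 without HFD 1 and LFD 3, and to 20 without HFD 2, 21 without LFD 2, 22 without HFD 3 and 27 without LFD 3. With library sizes over all listed circRNAs there were 48 calls, 1 of them among the circles of 7 or more exons. Same-numbered libraries correlated by -0.0586, 0.113 and -0.0514 in their deviations, so the numbers do not pair them. The replicate block left 1 call among these circles, and differences of 0.609 percentage points of reads and 23.0 circles.

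Reads per detected circle fell short of the threshold with medians (-0.833) and, by fewer sign patterns, without HFD 1 and LFD 3 (-1.10) and with single libraries left out (-1.15 to -1.05). The recurrence difference did so without HFD 1 and LFD 3 (-23.0) and with single libraries left out (-27.3 to -24.3).

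Log2 fold changes of named circles turned sign as follows. Without HFD 1 and LFD 3, Aass circRNA817 stood at -0.015 and Asph circRNA1587 at -0.26, and the latter stood at -0.44 with the replicate block and -0.095 by limma. With single libraries left out, the range was -0.78 to 0.65 for Asph circRNA1587, -0.22 to 1.30 for Reps1 mmu_circ_0000148, -1.54 to 0.036 for Rmdn2 circRNA1610, -0.26 to 1.23 for Eps15l1 mmu_circ_0001688, -0.93 to 1.17 for Usp3 mmu_circ_0001798, -0.38 to 0.93 for Mgam circRNA1786 and -0.37 to 1.07 for Mgam circRNA3127. The other 195 values for named circles kept their direction and side of the thresholds, and 2 for Lamp2 moved past them, 3.75 without LFD 1 and 1.07 by limma, with a range of 0.90 to 3.75 over single libraries left out. The causes of these shifts were not tested. Depth limits these results, since a circle of 1 or 2 reads in a library cannot be told from its absence in the next.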
